A study of Mus musculus with 14 samples.

Results

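Ezr, Rdx, Msn, Slc9a3r1, Slc9a3r2, Vil1, Espn and Myo6 encode the linkers, scaffolds, actin bundlers and motor of apical microvilli (MV). These 8 genes were chosen by symbol, as genes of the structure at which CLIC proteins act together with ERM proteins, and all 8 were found among the 42687 genes of the count table. Their transcripts were measured by RNAseq of retinal pigment epithelium (RPE), the pigmented cell layer behind the photoreceptors, in 14 libraries. Each library came from 1 male C57BL/6J mouse of 3 months, with the RPE of both eyes pooled after enzymatic detachment. KO mice (Best1-Cre+/-; Clic4f/f) lack Clic4 where the RPE promoter Best1 drives Cre, from after birth onwards. They were compared in 3 sets that share no library. The WT set held 3 wild-type (WT) and 3 KO mice. The Ctrl set held 2 mice with floxed Clic4 alleles and no Cre (Ctrl, Clic4f/f) and 2 KO mice. The CreCtrl set held 2 mice with Cre and no floxed allele (CreCtrl, Best1-Cre+/-) and 2 KO mice. Control genotype and set go together and cannot be told apart.

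The proteins ezrin, radixin and moesin (ERM) tie the plasma membrane to actin filaments. Each is opened into its active form when a threonine near its C-terminus is phosphorylated, by kinases that include those encoded by Stk10 and Slk. In the RPE, long apical MV wrap the photoreceptor outer segments and serve retinoid and ion transport, and ezrin with its scaffold EBP50 (also called NHERF1, from Slc9a3r1) is the known linker there. CLIC4 is a chloride intracellular channel protein that is found with ezrin and actin at the cell cortex.

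The 3 ERM genes are paralogs, so their sequences are shown first, at the codon on which their regulation turns. Each line gives 27 coding bases, read from the GENCODE M21 transcripts (GRCm38), with the codon of the C-terminal threonine in capitals.
Ezr: gacaagtataagACGctgcggcaaatc
Rdx: gataagtacaagACCcttcggcagatt
Msn: gacaaatacaagACCctgcgccagatc
The Ezr stretch is on the minus strand at chr17:6739351-6739377, the Rdx stretch on the plus strand at chr9:52086405-52086431, and the Msn stretch on the plus strand at chrX:96166560-96166586. Each lies in 1 coding exon, and the threonine is codon 567 of 586 in Ezr, 564 of 583 in Rdx and 558 of 577 in Msn. Over these 27 bases Ezr differed from Rdx at 6 positions and from Msn at 5, and Rdx differed from Msn at 5. Across whole coding transcripts, the longest run of identical bases was 15 for Ezr and Rdx, 32 for Ezr and Msn, 18 for Rdx and Msn, and 14 for Slc9a3r1 and Slc9a3r2. No run reached the 50 bases of a sequencing read, so a read without mismatches cannot belong to both genes of such a pair.

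Levels are given as CPM, counts per 1000000 counts of a library, scaled over all 14 libraries with TMM, a weighting that sets the typical gene equal between libraries. The libraries held 9828293 to 32384166 counts. KO and control counts of a set were compared with the quasi-likelihood test of edgeR, p-values were adjusted by Benjamini-Hochberg over all genes tested, and a gene was called when its adjusted p was under 0.05. The p-values measure the spread among these mice. The targeted gene Clic4 had 226, 230 and 218 CPM in WT and 33.1, 23.3 and 17.9 CPM in KO libraries of the WT set. It had 71.4 and 62.1 CPM in Ctrl against 9.78 and 33.9 CPM in their KO, and 86.5 and 108 CPM in CreCtrl against 13.7 and 30.5 CPM in their KO. Clic4 was below its controls in 7 of 7 KO libraries, and the KO ranges of the 3 sets overlapped one another. KO libraries lay wholly below controls in each set for 10.5% of all genes tested. Clic4 was called lower against WT (log2 fold change -3.32, adjusted p = 3.33e-05, edgeR) and CreCtrl (-2.16, adjusted p = 0.0132). Against Ctrl its log2 fold change of -1.61 (standard error 0.58) was not called (adjusted p = 0.333, edgeR).

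Markers of RPE were present in every library, with 0 of 10 at a count of 0, but their levels moved with the comparison. The summed level of the 10 RPE markers was 15065 to 22381 CPM in WT, 45542 to 56273 CPM in Ctrl and CreCtrl, and 69944 to 80047 CPM in the KO libraries. The 10 fibroblast markers summed to 7685 to 7878 CPM in WT, 1272 to 2737 CPM in Ctrl and CreCtrl and 131 to 755 CPM in KO. In bulk RNA, fewer cells of a type and less RNA per cell cannot be told apart. The part of these markers in the results for single genes was not tested beyond the ratios to RPE markers given with them.

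Ezr (ENSMUSG00000052397, chr17:6738041-6782784, minus strand) encodes ezrin, the ERM protein of epithelial MV. In the WT set, Ezr had 335, 344 and 463 CPM in WT and 1656, 1867 and 1734 CPM in KO libraries. All KO values were above all WT values, and Ezr rose 4.16-fold (log2 fold change 2.06, standard error 0.17, adjusted p = 6.09e-05, edgeR). In the Ctrl set, the Ctrl libraries had 1178 and 1934 CPM and the KO libraries 1864 and 2063 CPM. One Ctrl library therefore lay within the KO values, and the log2 fold change of 0.34 (standard error 0.33) did not pass the test (adjusted p = 0.852, edgeR). Ezr had 1339 and 891 CPM in CreCtrl and 1707 and 1930 CPM in KO libraries. The groups did not overlap, but the log2 fold change of 0.67 (standard error 0.25) was not called (adjusted p = 0.0955, edgeR). Without CreCtrl library 1 it was 0.99 and called (adjusted p = 0.00787). Ezr was nearly level among KO libraries, with 1656 to 2063 CPM over all 7, a 1.25-fold range. It spanned 335 to 1934 CPM over the 7 controls, a 5.77-fold range, with the 3 WT libraries lowest.

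The KO effect on Ezr differed between sets. It was larger in the WT set than in the Ctrl set by 1.87 on the log2 scale (standard error 0.34, adjusted p = 0.0135, edgeR). Over all genes tested, the median of that same difference was 0.14. Against the CreCtrl set it was larger by 1.496 (standard error 0.34), a difference at the edge of the threshold (adjusted p = 0.04999, edgeR). Ezr was the 1 member called higher in each of these differences, where 4.34% and 1.12% of all genes tested were called higher. Of the 10 RPE markers, 3 and 4 were called higher in them and 0 lower. The median differences of these markers were 1.20 and 1.18, and the highest were 2.175 (Lrat) and 1.85 (Ttr). Best1 alone went the other way, with -1.77 and -0.61, not called. The part of the RPE markers in the Ezr differences was not tested. No member was called for the Ctrl set against the CreCtrl set, where edgeR, the 1 tool run for it, called 0% of genes and 1545 of 17662 had an unadjusted p under 0.05. With every gene kept that had a count, it called 331 genes higher and 552 lower, again with no member.

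Rdx (ENSMUSG00000032050, chr9:52047173-52088735, plus strand) encodes radixin, the ERM protein of bile canaliculi and hair cell stereocilia. In the WT set, Rdx had 128, 87.8 and 119 CPM in WT and 90.7, 86.2 and 73.8 CPM in KO libraries. The lowest WT value lay within the KO values, and the fall of 1.47-fold was called (log2 fold change -0.56, standard error 0.16, adjusted p = 0.0268, edgeR). That call was lost, with adjusted p of 0.0695 to 0.173, when WT library 1 or 3 or any KO library was left out. In the CreCtrl set the order was the opposite, with 111 and 83.2 CPM in CreCtrl and 135 and 158 CPM in KO libraries. The groups did not overlap there, and the log2 fold change of 0.56 (standard error 0.19) was not called (adjusted p = 0.0784, edgeR). Without CreCtrl library 1 it was 0.77 and called (adjusted p = 0.0174). The difference of the effects, -1.01 on the log2 scale, missed the threshold (adjusted p = 0.0728, edgeR). In the Ctrl set, Rdx had 141 and 162 CPM in Ctrl and 139 and 126 CPM in KO libraries, and its log2 fold change was -0.20 (adjusted p = 0.872).

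Msn (ENSMUSG00000031207, chrX:96096042-96168552, plus strand) encodes moesin, the ERM protein that prevails in endothelial and blood cells. In the WT set, Msn had 233, 269 and 252 CPM in WT and 155, 182 and 151 CPM in KO libraries. The groups did not overlap, and Msn fell by 0.77 on the log2 scale (standard error 0.12, adjusted p = 0.00163, edgeR), or 1.71-fold. Msn had 199 and 236 CPM in Ctrl and 164 and 236 CPM in KO libraries. Its levels were 174 and 187 CPM in CreCtrl and 155 and 190 CPM in KO libraries. The groups overlapped in both sets, and the log2 fold changes of -0.12 and -0.10 were not called (adjusted p = 0.951 and 0.722, edgeR). Endothelial markers summed to 402 to 718 CPM in WT, 167 to 427 CPM in Ctrl and CreCtrl and 46.3 to 195 CPM in KO libraries, with 0 of 10 at a count of 0. Of these 10, 9 were called lower in KO against WT and 8 against CreCtrl, beside 19.0% and 12.2% of all genes tested. Against Ctrl 0 were called, where edgeR called 0% of all genes. Their median log2 fold changes were -2.45, -2.51 and -2.11 against WT, CreCtrl and Ctrl. The part of these markers in the Msn levels was not tested.

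**Figure D1:**
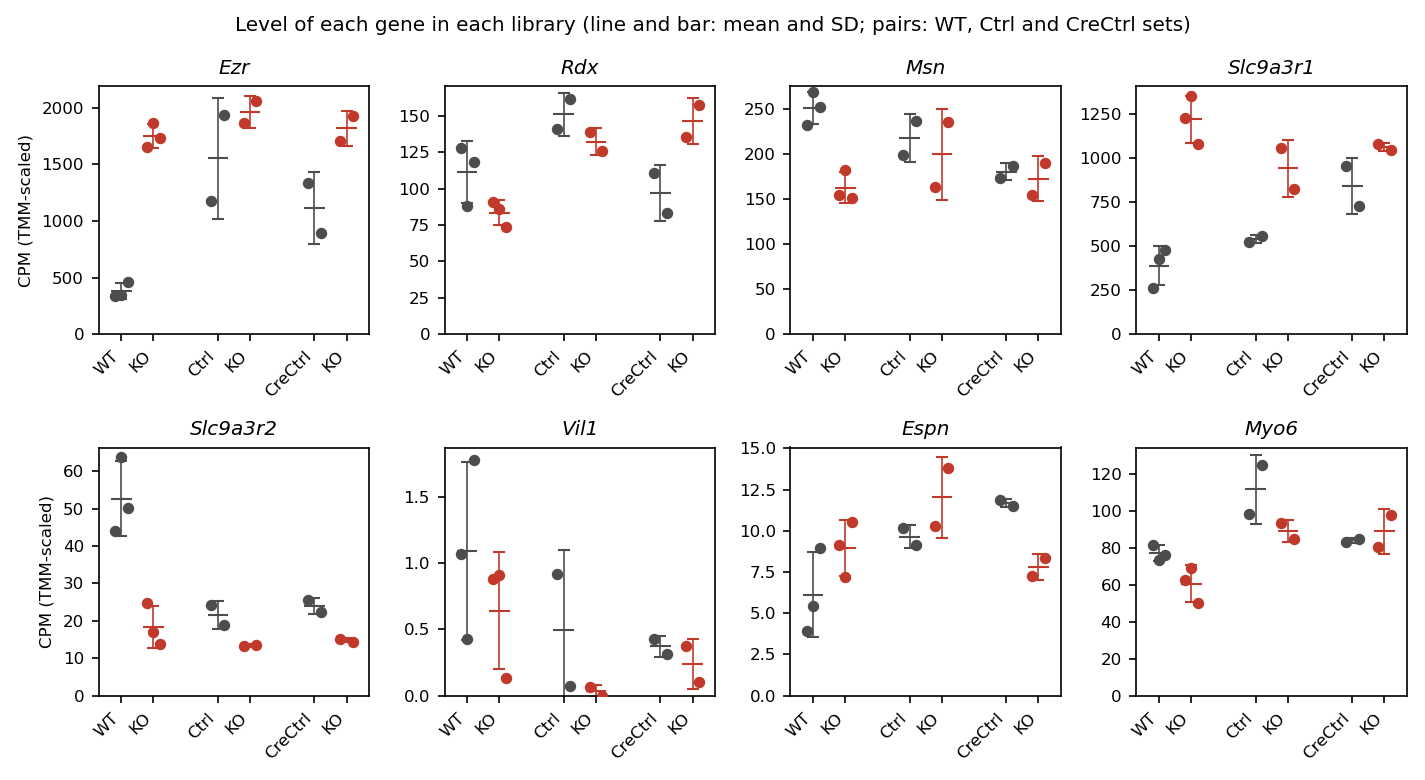
Level of each of the 8 genes in each of the 14 libraries, in CPM scaled with TMM, with control libraries in grey, KO libraries in red and pairs of groups for the WT, Ctrl and CreCtrl sets. The line and bar are the mean and SD, with bars cut at 0. Ezr and Slc9a3r1 are lowest in WT, Slc9a3r2 is highest there, and Vil1 stays at or under 1.78 CPM.

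Within a library, the balance among the ERM transcripts does not depend on the scaling between libraries. Per kilobase of exon, Ezr made up 61.3%, 63.0% and 68.3% of the ERM total in WT libraries and 92.0%, 92.3% and 93.0% in their KO libraries. It made up 85.3% and 89.1% in Ctrl against 91.0% and 90.7% in KO, and 88.8% and 85.1% in CreCtrl against 90.6% and 90.1% in KO libraries. In each set, every KO library had a larger Ezr share than every control library. The Msn share was 19.3% to 25.6% in WT and 4.16% to 9.29% in all other libraries. The Rdx share was 11.4% to 16.6% in WT and 2.81% to 7.23% elsewhere. Ezr was thus the prevailing ERM transcript in 14 of 14 libraries, and the WT libraries had the most even balance. These shares were computed after the levels were known and were not tested.

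**Figure D2:**
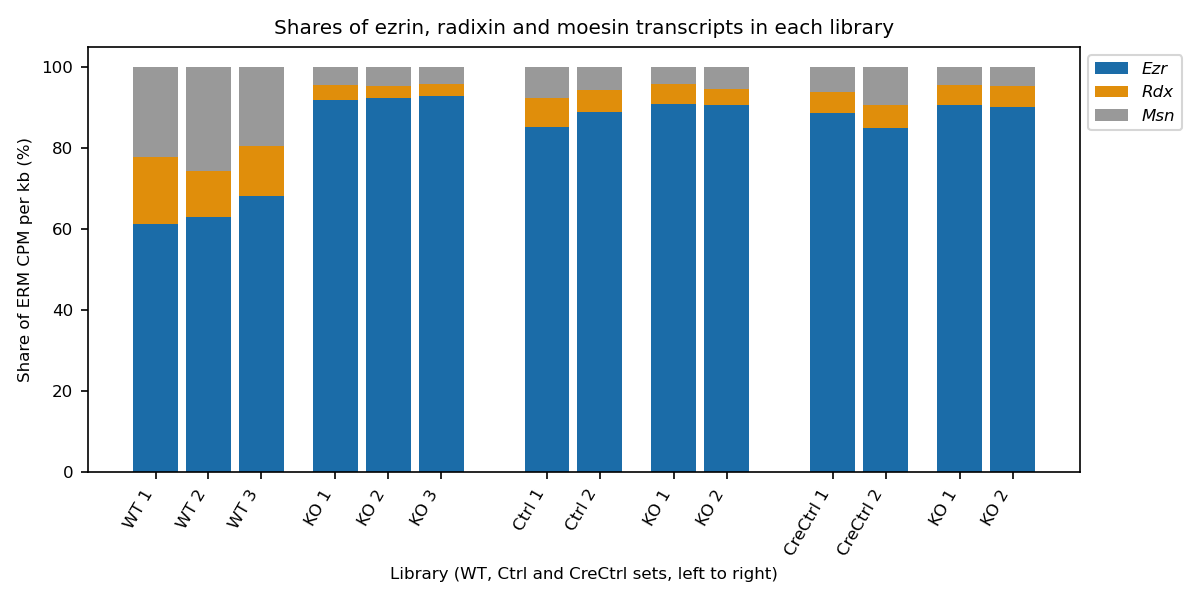
Shares of Ezr, Rdx and Msn in the summed ERM level of each library, in percent of CPM per kilobase of exon, as stacked bars for the WT, Ctrl and CreCtrl sets from left to right. Ezr holds 61.3% to 68.3% in the WT libraries and 85.1% or more in every other library.

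The NHERF scaffolds bind the membrane end of ERM proteins and join them to channels and transporters. Slc9a3r1 (ENSMUSG00000020733, chr11:115163341-115181181, plus strand) encodes NHERF1, or EBP50. It had 262, 426 and 474 CPM in WT and 1226, 1348 and 1078 CPM in KO libraries of the WT set. Every KO value was more than double the highest WT value, and Slc9a3r1 rose 2.84-fold (log2 fold change 1.51, standard error 0.22, adjusted p = 0.00108, edgeR). In the Ctrl set, it had 523 and 555 CPM in Ctrl and 1055 and 824 CPM in KO libraries. The groups did not overlap, and the log2 fold change of 0.80 (standard error 0.26) had an unadjusted p of 0.0225 but was not called (adjusted p = 0.270, edgeR). For CreCtrl, the levels were 953 and 728 CPM in controls and 1079 and 1044 CPM in KO libraries. These groups did not overlap either, and the log2 fold change was 0.30 (standard error 0.21), not called (adjusted p = 0.313, edgeR). The effect in the WT set exceeded that in the CreCtrl set by 1.32 on the log2 scale, which missed the threshold (adjusted p = 0.0669, edgeR).

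Slc9a3r2 (ENSMUSG00000002504, chr17:24639286-24650327, minus strand) encodes NHERF2, the paralog that also couples transporters to the cytoskeleton. It had 44.1, 63.9 and 50.3 CPM in WT and 24.7, 17.0 and 13.7 CPM in KO libraries of the WT set. The groups were well apart, and Slc9a3r2 fell by 1.66 on the log2 scale (standard error 0.25, adjusted p = 0.00126, edgeR), or 3.15-fold. It had 25.5 and 22.5 CPM in CreCtrl and 15.2 and 14.5 CPM in KO libraries. It fell there by 0.73 on the log2 scale (standard error 0.18, adjusted p = 0.0410, edgeR), the 1 member called in this set. That call was lost, with adjusted p of 0.0543 to 0.212, without CreCtrl library 1 or either KO library. Slc9a3r2 had 24.2 and 18.9 CPM in Ctrl and 13.2 and 13.6 CPM in KO libraries, without overlap. Its log2 fold change of -0.69 (standard error 0.30) was not called (adjusted p = 0.466, edgeR).

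Per kilobase of exon, Slc9a3r1 made up 89.1% to 92.8% of the NHERF pair in WT, 96.7% to 98.1% in Ctrl and CreCtrl and 98.6% to 99.1% in KO libraries. The NHERF1 share of every KO library was above that of every control library. Slc9a3r1 and Slc9a3r2 were the only members for which the KO and control groups were apart, and in the same order, in all 3 sets.

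Vil1 (ENSMUSG00000026175, chr1:74409376-74435559, plus strand) and Espn (ENSMUSG00000028943, chr4:152120331-152152371, minus strand) encode villin and espin, which bundle the actin core of MV in gut and kidney and of stereocilia. Vil1 was close to undetected, with 0 to 26 counts and at most 1.78 CPM in a library. One KO library of the Ctrl set had no Vil1 count, which allows up to 0.179 CPM by the limit of 3 counts (counting error only). Vil1 passed the filter on low counts in the WT set alone, where its log2 fold change of -0.92 had a standard error of 1.21 and was not called (adjusted p = 0.616, edgeR). A difference in Vil1 was not detectable at this depth.

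Espn was low but measurable in every library. It had 3.94, 5.42 and 8.98 CPM in WT and 9.12, 7.20 and 10.6 CPM in their KO libraries, which overlapped. In the Ctrl set, it had 10.1 and 9.14 CPM in Ctrl and 10.3 and 13.8 CPM in KO libraries. It had 11.8 and 11.5 CPM in CreCtrl and 7.23 and 8.34 CPM in KO libraries. The order was thus opposite in the Ctrl and CreCtrl sets. The log2 fold changes were 0.41, 0.32 and -0.62 in the WT, Ctrl and CreCtrl sets, none of them called (adjusted p = 0.534, 0.876 and 0.105, edgeR).

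Myo6 (ENSMUSG00000033577, chr9:80165031-80311729, plus strand) encodes myosin VI, the motor that walks to the minus end of actin filaments, at the base of MV. In the WT set, it had 81.8, 73.5 and 76.0 CPM in WT and 62.8, 69.3 and 50.0 CPM in KO libraries. The groups lay next to each other without overlap, and Myo6 fell by 0.49 on the log2 scale (standard error 0.14, adjusted p = 0.0275, edgeR), or 1.40-fold. The call was lost whichever of the 6 libraries was left out, with adjusted p of 0.0512 to 0.177. Myo6 had 98.5 and 125 CPM in Ctrl and 93.5 and 85.0 CPM in KO libraries. Its levels were 83.3 and 85.0 CPM in CreCtrl and 80.4 and 97.7 CPM in KO libraries. The groups were apart in the former and overlapped in the latter, and the log2 fold changes of -0.33 and 0.05 were not called (adjusted p = 0.752 and 0.845, edgeR).

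In the WT set, 2 of 8 members were called higher and 4 lower, beside 16.1% and 19.0% of the 15428 genes tested. No member was called in the Ctrl set, where edgeR called 0% of 15287 genes, 1846 of which had an unadjusted p under 0.05. The 0 was not kept under some other processing. DESeq2 called 9 genes higher and 1157 lower, edgeR 26 and 1632 with every gene kept that had a count, and edgeR 0 and 113 with the replicate block. In 1 fit of all 14 libraries edgeR called 13 and 635, without Ctrl library 1 it called 12 and 500, and without Ctrl library 2 it called 0 and 26. No member was called in any of these fits. In the CreCtrl set, 0 of the 7 members tested were called higher and 1 lower, beside 3.60% and 12.2% of the 15963 genes tested. KO libraries lay wholly above controls for 2 members against WT, 2 against Ctrl and 3 against CreCtrl, beside 28.7%, 18.3% and 37.3% of genes tested. Of the members tested, 3, 3 and 2 lay wholly below, beside 24.5%, 22.7% and 34.9% of genes. In each of the 3 sets, 1 member (Slc9a3r1) lay above and 1 (Slc9a3r2) below, as did 9.25% and 10.5% of all genes tested together.

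With all 7 KO against all 7 control libraries and the set as a term, Ezr rose 2.30-fold (log2 fold change 1.20, standard error 0.28, adjusted p = 0.00439, edgeR). Slc9a3r1 rose 2.00-fold (log2 fold change 1.00, standard error 0.21, adjusted p = 0.00258, edgeR). Slc9a3r2 fell by 1.08 on the log2 scale (standard error 0.18, adjusted p = 7.49e-04, edgeR), and Msn fell by 0.36 (standard error 0.13, adjusted p = 0.0377, edgeR). Rdx (-0.10), Espn (0.13) and Myo6 (-0.25) were not called, with adjusted p of 0.649, 0.705 and 0.0718. The Msn call was lost, with adjusted p of 0.0543 to 0.0949, without any 1 of 8 libraries (WT 2 and 3, each KO of the WT set, KO 1 of the Ctrl set, CreCtrl 2 and KO 1 of the CreCtrl set). Whether Myo6 was called depended on the processing. Its log2 fold change was -0.29 with RLE scaling (adjusted p = 0.0412) and with DESeq2 (adjusted p = 0.0437), and -0.34 with at least 10 counts required in every library (adjusted p = 0.0200). It was -0.49 with library size alone (adjusted p = 0.00280) and -0.30 without KO library 2 of the CreCtrl set (adjusted p = 0.0352). These are 2 of 7 members tested called higher and 2 lower, beside 21.0% and 19.6% of 14925 genes. Without the WT set, Ezr had a log2 fold change of 0.49 (adjusted p = 0.187), Slc9a3r1 0.53 (adjusted p = 0.101) and Msn -0.13 (adjusted p = 0.6004), and none of them was called. Slc9a3r2 was called without any 1 of the 3 sets. Scaling by library size alone moved the median over all genes to -0.32 (WT set), -0.11 (Ctrl set), -0.24 (CreCtrl set) and -0.24 (all sets) on the log2 scale. Ezr, Slc9a3r1 and Slc9a3r2 kept their direction under it in each of these comparisons.

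**Figure D3:**
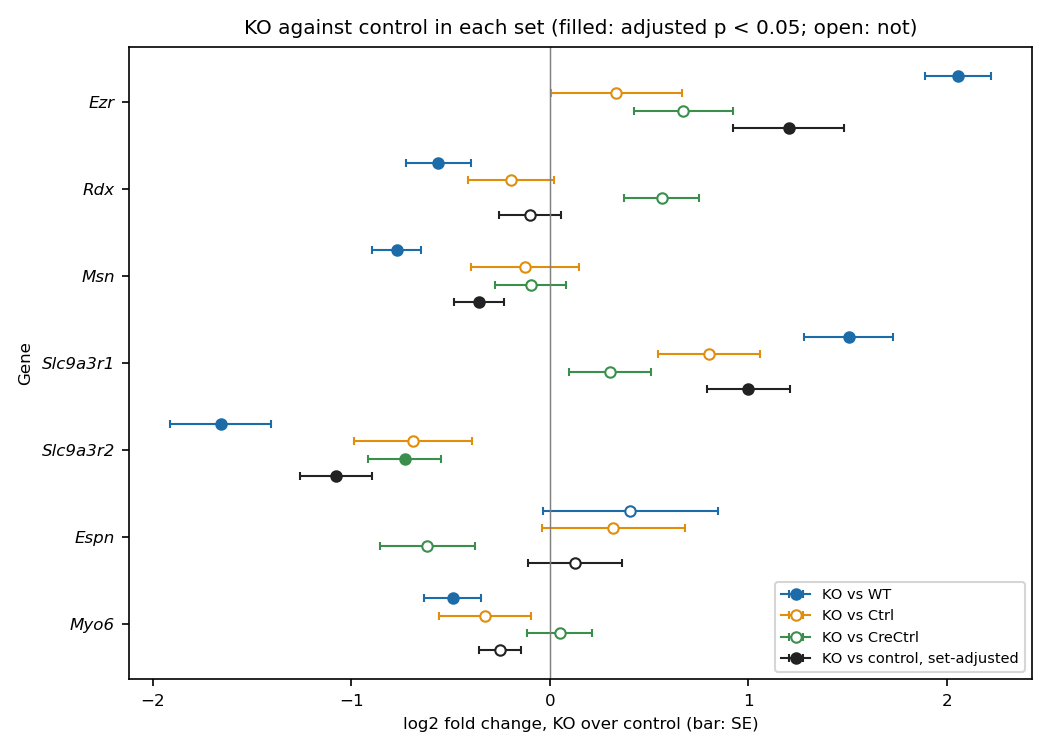
Log2 fold change of KO over control for the 7 members tested in all comparisons, with the standard error as a bar, against WT (blue), Ctrl (orange) and CreCtrl (green) and all sets with the set as a term (black). Filled points have an adjusted p under 0.05. Ezr (2.06) and Slc9a3r1 (1.51) lie to the right of 0 in the WT set. Slc9a3r2 and Msn lie to the left in all 4 comparisons, and Rdx, Espn and Myo6 lie on both sides.

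Set against the summed RPE markers of the same library, a measure chosen after the levels were seen, the picture for Ezr and Slc9a3r1 was different from that in CPM. Per 1000 CPM of RPE markers, Ezr had 22.3, 19.4 and 20.7 CPM in WT and 23.1, 23.3 and 24.2 CPM in KO libraries. It had 25.9 and 41.7 CPM in Ctrl against 26.7 and 28.5 CPM in KO, and 23.8 and 18.3 CPM in CreCtrl against 24.4 and 25.5 CPM in KO libraries. All but 1 of the 14 libraries thus fell between 18.3 and 28.5, and the KO mean minus the WT mean was 0.18 on the log2 scale, beside 2.22 for the CPM themselves. Slc9a3r1 had 17.4, 24.0 and 21.2 CPM per 1000 in WT and 17.1, 16.8 and 15.1 CPM per 1000 in KO libraries, so that its order was turned (-0.34 on the log2 scale). With the mean log2 level of the 10 markers as the reference in place of their sum, of which Ttr alone made 36.7% to 56.6%, the WT set gave 0.85 for Ezr and 0.32 for Slc9a3r1. The Ezr and Slc9a3r1 differences in the WT set were thus smaller than in CPM by either measure. Each reference lowers the WT set difference of every gene by the same amount.

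On the scale of the RPE marker sum, Rdx, Msn, Slc9a3r2 and Myo6 were further apart between WT and KO than in CPM, and Espn was turned. The reference is the same for all genes of a library, so every WT set difference was lowered by the same amount. The shift thus reflects the RPE marker sum and is not a result for any single gene. The KO mean minus the WT mean on the log2 scale was -2.44 for Rdx, -2.66 for Msn, -3.58 for Slc9a3r2, -2.39 for Myo6 and -1.42 for Espn, beside -0.40, -0.63, -1.54, -0.36 and 0.62 for the CPM themselves. Relative to RPE markers, every member but Ezr was higher in each WT library than in any other library, so this pattern was not particular to Msn and Slc9a3r2. Msn had 15.5, 15.2 and 11.3 CPM per 1000 CPM of RPE markers in WT and 2.16, 2.28 and 2.11 in KO libraries. Over Ctrl and CreCtrl it ranged from 3.09 to 5.10, and in their KO libraries from 2.22 to 3.26. Slc9a3r2 had 2.93, 3.60 and 2.25 in WT, 0.407 to 0.532 in Ctrl and CreCtrl, and 0.188 to 0.344 in the 7 KO libraries. The fibroblast sum was also higher in every WT library than in any other, while the endothelial sum of WT library 1 (402 CPM) was below that of CreCtrl library 1 (427 CPM). The RPE markers were themselves measured in KO and control mice. Of 10, 8 were called higher against WT, 0 against Ctrl and 1 against CreCtrl, beside 16.1%, 0% and 3.60% of all genes tested. Best1 went the other way against WT and CreCtrl (log2 fold changes -1.82 and -1.11, not called), with 0.08 against Ctrl. It was called lower with the set as a term (-1.04, adjusted p = 0.0411, edgeR).

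**Figure D4:**
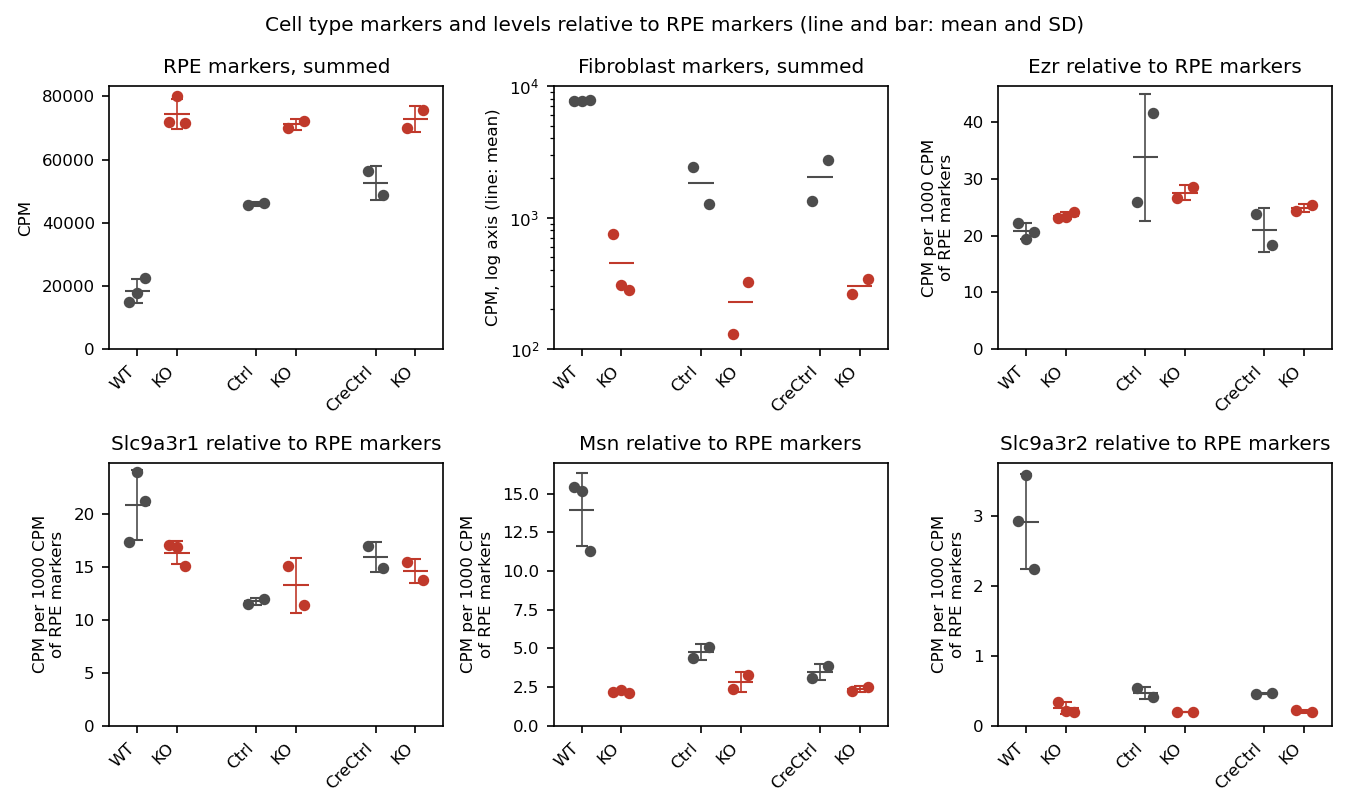
Summed CPM of 10 RPE and 10 fibroblast markers (the latter on a log axis), and 4 members in CPM per 1000 CPM of summed RPE markers, in each library of the WT, Ctrl and CreCtrl sets (grey, control; red, KO; line and bar, mean and SD, with no bar on the log axis). The WT libraries have the lowest RPE sum (15065 to 22381 CPM) and the highest fibroblast sum (7685 to 7878 CPM), and Ezr lies between 18.3 and 28.5 in all libraries but 1.

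Per kilobase of exon, Slc9a3r1 and Ezr stood far above the other members in both states. In WT, Slc9a3r1 had 201 ± 57.9 CPM per kb and Ezr 116 ± 21.7 (SD, n = 3), followed by Msn with 39.7 ± 2.88, Rdx with 24.1 ± 4.54 and Slc9a3r2 with 19.9 ± 3.82. Myo6 followed with 6.38 ± 0.35, Espn with 0.74 ± 0.31 and Vil1 with 0.31 ± 0.19. Rdx and Slc9a3r2 were neighbours that did not differ beyond their spread. In KO libraries of the WT set the order was the same, with 632 ± 70.1 for Slc9a3r1, 533 ± 32.4 for Ezr, 25.7 ± 2.69 for Msn and 18.0 ± 1.89 for Rdx. Slc9a3r2 then had 6.98 ± 2.13 and Myo6 5.03 ± 0.81 CPM per kb, which did not differ beyond their spread. The order of the top pair was not the same in the other sets. Ezr had 473 ± 162 and Slc9a3r1 280 ± 11.9 CPM per kb in Ctrl (SD, n = 2), and 597 ± 42.7 and 488 ± 84.8 in their KO libraries. In CreCtrl, Ezr had 339 ± 96.4 and Slc9a3r1 437 ± 82.9 CPM per kb, and in their KO libraries the pair was level, with 553 ± 47.9 and 552 ± 12.9.

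The genes whose log2 CPM followed each member most closely over the 14 libraries are given as a description only. The reason is that the libraries differ together in depth, set and the levels of cell type markers. Among 9970 other genes with a mean of at least 10 CPM, Ezr was closest to Basp1 (Pearson r = 0.995), Mmachc (0.995) and Tex2 (0.994). Slc9a3r1 was closest to Cisd1 (0.974), Sec14l2 (0.974) and Nat8f1 (0.972). Slc9a3r2 was closest to Zfas1 (0.971), Csf1 (0.968), the cytokine that sustains macrophages, and Palm (0.967). Msn was closest to Ifngr2 (0.956), a subunit of the interferon gamma receptor, Rdx to Sept7 (0.950), a septin of the cortical cytoskeleton, and Myo6 to Sos1 (0.944), an activator of Ras. Among the closest to Espn were Pacsin1 (0.908) and Gucy2e (0.905), the latter a guanylate cyclase of photoreceptors.

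Of 69 related genes of the same machinery, 60 were tested in the WT set, where 14 were called higher and 19 lower in KO, beside 16.1% and 19.0% of all genes tested. In the Ctrl set 0 of 59 were called, and in the CreCtrl set 3 of 60 were called higher and 16 lower, beside 3.60% and 12.2% of all genes tested. The counts given for each list are to be read against these shares, and no list was tested against them. The median log2 fold change of the related genes was -0.16, -0.26 and -0.28 in these sets, beside -0.08, 0.01 and -0.02 over all genes tested.

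Among the kinases and regulators of ERM proteins, 1 of 8 was called higher and 4 lower in the WT set. Slk, a kinase of the ERM threonine, rose by 0.60 on the log2 scale (adjusted p = 0.00745, edgeR), with 0.00 for Ctrl and 0.12 for CreCtrl. Arhgdib, a GDP dissociation inhibitor of small GTPases in blood cells, fell by 2.81 (adjusted p = 1.06e-04), with -1.08 in the Ctrl set, and fell by 2.09 in the CreCtrl set (adjusted p = 0.0153). Rock2 and Rock1, kinases that act on the actin cytoskeleton, fell by 1.38 and 1.02 in the WT set (adjusted p = 3.17e-04 and 0.00143). Their log2 fold changes were -0.61 and -0.26 for Ctrl and -0.27 and 0.25 for CreCtrl, none of them called.

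Of the 15 membrane partners of ERM and NHERF proteins, 12 were tested in the WT set, with 1 called higher and 4 lower. Pdpn, podoplanin, a mucin-like ligand of ezrin, rose by 1.12 on the log2 scale (adjusted p = 0.00122, edgeR), with 0.25 for Ctrl and 0.75 for CreCtrl. Icam2, Icam1 and Cd44, adhesion molecules of endothelial, immune and stromal cells, fell in the WT set with log2 fold changes of -3.73, -3.30 and -2.74 (adjusted p = 0.0103, 3.24e-04 and 3.40e-04). In the CreCtrl set they fell with log2 fold changes of -2.61, -3.55 and -2.96 (adjusted p = 0.0336, 0.00820 and 0.0108), and in the Ctrl set they had -1.17, -2.39 and -3.91, not called. Slc9a3, Cftr and Pdzk1, the transporter, channel and scaffold that NHERF1 binds in gut and kidney, were too low to be tested.

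Of 17 proteins that bundle or cap actin in MV, 3 were called higher and 7 lower in the WT set. Fscn1, the bundler fascin, rose by 1.16 on the log2 scale in the WT set (adjusted p = 0.00363, edgeR) and by 0.85 in the CreCtrl set (adjusted p = 0.0380), with 0.64 in the Ctrl set. Baiap2l2 and Eps8l2, which shape or cap protrusions, both rose by 0.84 in the WT set (adjusted p = 6.57e-04 and 0.00124), with 0.56 and -0.24 for Ctrl and -0.09 and 0.09 for CreCtrl. Vill, Scin and Gsn, of the villin and gelsolin family, fell in the WT set with log2 fold changes of -4.64, -4.53 and -4.28 (adjusted p = 3.83e-05, 0.0217 and 3.53e-05). They fell in the CreCtrl set too, with -3.15, -3.36 and -2.88 (adjusted p = 0.00682, 0.0238 and 0.00309), and had -2.15, -5.07 and -3.27 in the Ctrl set, not called. Fibroblast markers were lower along with them, with 10 of 10 called lower in the WT set, 9 for CreCtrl and 0 for Ctrl. Of all genes tested, 19.0%, 12.2% and 0% were called lower in these sets. The median log2 fold changes of the fibroblast markers were -4.32, -3.51 and -2.98.

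Of 13 microvillar and cortical myosins, 10 were tested in the WT set, with 3 called higher and 1 lower. Myo5b, a motor of apical recycling vesicles, rose by 1.66 on the log2 scale (adjusted p = 4.23e-04, edgeR) and by 0.84 in the CreCtrl set (adjusted p = 0.0381), with -0.09 in the Ctrl set. Myo1e and Myo10 rose by 0.77 and 0.53 in the WT set (adjusted p = 0.0284 and 0.0123), with 0.20 and 0.15 for Ctrl and 0.34 and 0.27 for CreCtrl. Myo1c fell by 2.18 in the WT set and by 1.499 in the CreCtrl set (adjusted p = 3.28e-04 and 0.00519), with -1.29 in the Ctrl set. Of 5 genes of the complex that joins the tips of brush border MV, 2 were tested, and Calml4 rose by 1.54 in the WT set (adjusted p = 3.20e-04), with 0.64 and 0.55 in the Ctrl and CreCtrl sets.

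Of 7 adaptors of myosin VI, 4 were called higher and 1 lower in the WT set, where Myo6 itself was called lower. Their median log2 fold change was 0.49. Optn, Lmtk2 and Tax1bp1, which link the motor to vesicles and autophagosomes, rose by 1.21, 0.94 and 0.71 (adjusted p = 0.00361, 4.77e-04 and 0.00154, edgeR). Their log2 fold changes were 0.29, 0.28 and 0.24 for Ctrl and 0.14, 0.62 and 0.52 for CreCtrl, none of them called. Dab2, an endocytic adaptor, fell by 3.87 in the WT set and by 2.56 in the CreCtrl set (adjusted p = 3.14e-04 and 0.00357), with -1.09 in the Ctrl set.

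Of the 4 other CLIC genes, 1 was called higher and 2 lower in the WT set. Clic6 rose by 1.67 on the log2 scale (adjusted p = 4.42e-04, edgeR), with 0.50 for Ctrl and 0.81 for CreCtrl. Clic5, whose protein joins radixin and myosin VI at the base of stereocilia, fell by 2.56 in the WT set and by 2.10 in the CreCtrl set (adjusted p = 0.00352 and 0.0253), with -2.06 in the Ctrl set. Clic1 fell by 1.64 and 0.79 in the same sets (adjusted p = 0.00103 and 0.0267), with -1.63 in the Ctrl set.

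**Figure D5:**
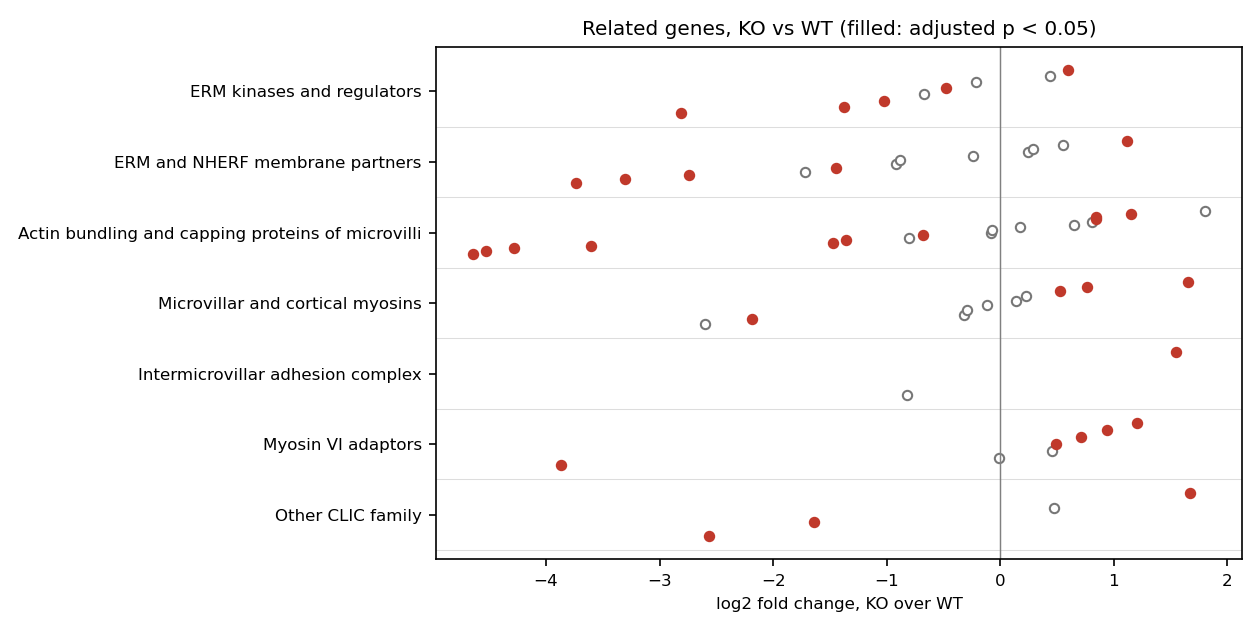
Log2 fold change of KO over WT for the 60 related genes tested in the WT set, by list, with filled points for an adjusted p under 0.05 and open points for the others. Of them, 14 filled points lie to the right of 0 and 19 to the left, the farthest being Vill at -4.64.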

How the data were processed

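The authors deposited whole-number counts of reads per Ensembl gene, with no normalization, from poly(A) TruSeq Stranded libraries sequenced with paired reads of 50 cycles. STAR 2.5.2, HTSeq 0.11.2, Cufflinks 2.1.1 and bcl2fastq 2.19 are listed with GRCm38 in the submitters' processing notes. The strand setting of the counting and the annotation release are not given in the sources used here. Without strand, reads of overlapping genes cannot be told apart, and Vil1 shares 49 exon bases with Usp37 and Ezr 4 with Sytl3.

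Gene names, positions and exon lengths came from GENCODE M21 (42329 of 42687 genes matched). KO libraries were assigned to sets from the style of the sample titles. Counts were tested with edgeR 4.0.16 (R 4.3.3): TMM, filterByExpr, quasi-likelihood fit, Benjamini-Hochberg. Sets were fitted apart, then together with the set as a term, and differences of KO effects in a fit of 6 groups, so fold changes and the CPM over 14 libraries carry different scaling factors. DESeq2 1.42.0, other scalings, filters and left-out libraries were alternatives. The tests were run on simulated counts first. The table holds no sign of a library deposited more than once. The genes named in each related list are up to 3 called higher and 3 lower in the WT set with the largest log2 fold change. The members and the lists of related and marker genes were chosen with earlier results of these data known. Besides those printed, 7 markers each of pericytes and of Schwann cells and 10 of myeloid cells were measured. Pericyte and smooth muscle markers summed to 1958 to 2118 CPM in WT and 303 to 854 CPM elsewhere, Schwann cell markers to 612 to 735 and 760 to 1191 CPM, and myeloid markers to 1172 to 1493 and 691 to 1464 CPM. Results for some genes named by these rules, and for 1 marker list, are not reported here.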

Additional observations from a re-analysis of the deposited data

Results flagged for a closer look

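The KO effect on Ezr in the WT set exceeded that in the Ctrl set by 1.87 on the log2 scale (adjusted p = 0.0135, edgeR's quasi-likelihood test) and that in the CreCtrl set by 1.496 (adjusted p = 0.04999). It was singled out because the test of the difference between sets itself passed the threshold. Such differences were not particular to Ezr. Of the 10 RPE markers, 3 and 4 were called higher in them, beside 4.34% and 1.12% of all genes tested. The median differences of these markers were 1.20 and 1.18. Ezr levels in KO were alike in the 3 sets (1656 to 2063 CPM). The WT libraries had 335 to 463 CPM and the other controls 891 to 1934 CPM. Set and control genotype cannot be told apart in this design.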

How the results depend on the processing

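Ezr, Msn, Slc9a3r1 and Slc9a3r2 were called in the WT set, in the same direction, with TMM, RLE or library size alone, with each filter, with DESeq2 and with any 1 library left out. The 4 members called lower there became 2 (Msn and Slc9a3r2) with a fold change above 1.5 required, 2 in 1 fit of all 14 libraries, and 2 to 3 with 1 library left out. In the CreCtrl set, the 1 member called lower became 2 with library size alone, 0 in 1 fit of all 14 libraries and 0 to 1 with 1 library left out. The 0 called higher became 2 (Ezr and Rdx) with DESeq2 and with every gene kept that had a count, and 0 to 2 with 1 library left out. With the set as a term, the 2 called lower became 1 with a fold change above 1.5, with every gene kept, and without the WT set or the CreCtrl set, and 1 to 3 with 1 library left out. The 2 called higher became 0 without the WT set. For the WT set minus the CreCtrl set, the 1 called higher became 0 with RLE scaling and 2 with every gene kept or with at least 10 counts in every library, and the 0 called lower became 1 with library size alone, every gene kept or at least 10 counts. For the WT set minus the Ctrl set, the 1 called higher became 2 with every gene kept. The cause was not tested.

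Of the values that turned sign, 1 had been called. Slc9a3r1 in the WT set turned to -0.34 relative to the sum of RPE markers, an alternative chosen after seeing the data. That reference lowers all genes of a set by the same amount. On that scale the uncalled values of Espn turned to -1.42 (WT set) and -0.32 (Ctrl set), Ezr to -0.25 (Ctrl set), and Slc9a3r1 and Myo6 to -0.13 and -0.40 (CreCtrl set). With 1 library left out, Msn ranged from -0.41 to 0.11 in the Ctrl set (0.11 without KO library 1) and from -0.27 to 0.089 in the CreCtrl set (0.089 without KO library 1). Myo6 in the CreCtrl set turned to -0.18 with library size alone and ranged from -0.12 (without KO library 2) to 0.23 with 1 library left out. With the set as a term, Espn turned to -0.11 with library size alone, -0.17 without the WT set and a range of -0.040 (without WT library 1) to 0.25 with 1 library left out, and Rdx to 0.16 without the WT set. For the Ctrl set minus the CreCtrl set, Msn turned to 0.027 with RLE, 0.090 with library size alone and 0.056 with at least 10 counts, and Slc9a3r2 to -0.024 with every gene kept. For the WT set minus the Ctrl set, Espn turned to -0.032 with library size alone and Myo6 to 0.0057 with every gene kept.

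Whether replicate numbers pair the libraries was not settled. WT libraries 2 and 3 correlated best with the KO library of their own number, and WT library 1 did not. With 2 libraries a group, the correlations within a set are 1 value with both signs. The Ctrl and CreCtrl sets therefore cannot show whether numbers pair libraries. The deviations of same-numbered KO and control libraries from their group means correlated at -0.018, 0.073 and 0.19 (WT set), -0.0059 (Ctrl set) and 0.13 (CreCtrl set). With the replicate block, the 2 members called lower with the set as a term became 1. Msn lost its call there (log2 fold change -0.36, adjusted p = 0.0508, edgeR). No other count of members called moved by over 1.5 times with that block. With 2 mice a group in the Ctrl and CreCtrl sets, the standard errors of 0.16 to 0.36 for members above the filter limit what these sets can show. Leaving out a library there leaves 1 sample in a group, which is assumed to vary like the others.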
